A study of Homo sapiens with 6 samples.

Results

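The tissue inhibitors of metalloproteinases (TIMPs) and a set of the enzymes they restrain were followed in 2 breast cancer cell lines. The set held 10 genes of the 20046 named on the arrays: the inhibitors TIMP1, TIMP2, TIMP3 and TIMP4, the matrix metalloproteinases MMP1, MMP2 and MMP14, and the related proteases ADAMTS6, ADAM17 and ADAM10. They were chosen by gene symbol, with measured values in view: the TIMPs for their rise and ADAMTS6 for its fall in MDA-MB-231 cells labelled as carrying hairpin shRNA-1. Their differences in that contrast are therefore a description, given with no test. The arrays carried 14 probes for the 10 genes.

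Gene expression had been measured on 6 Illumina bead arrays, each hybridised with biotinylated cRNA. MDA-MB-231, a mesenchymal-like line negative for hormone receptors, had 2 arrays labelled SETDB1 knockdown with shRNA-1 and 2 labelled shCtrl. MDA-MB-453, a luminal-like line positive for the androgen receptor, had 1 array labelled knockdown with shRNA-3 and 1 labelled shCtrl. SETDB1 is a histone methyltransferase that deposits the repressive H3K9 trimethyl mark. All groups share the same medium, DMEM with serum, and the same batch label. Each line carries 1 hairpin against SETDB1 and not the same one, so a difference between lines and a difference between hairpins cannot be told apart. Nothing in the labels ties replicates to separate cultures. The p-values therefore cover the spread between arrays alone, which may be technical. The precision is limited by the number of arrays.

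TIMPs are small secreted proteins that occupy the zinc-containing active site of metalloproteinases. Matrix metalloproteinases (MMPs) cut collagens and other matrix proteins, ADAMs are membrane-anchored proteases that release the outer parts of surface proteins, and ADAMTS enzymes are secreted and act largely on the matrix. The inhibitors are not interchangeable. TIMP3 binds to the extracellular matrix and also restrains ADAM17 and several ADAMTS enzymes, while TIMP2 can join MMP14 on the cell surface and take part there in the activation of the proMMP2 zymogen. In breast cancer the balance of both sides is studied for its bearing on invasion.

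RefSeq promoter windows (GRCh38.p14, 250 bases before to 50 after each gene's start) were matched by symbol for 7 of the 10 genes; TIMP2, MMP1 and MMP2 had no entry. The windows of the 3 inhibitors that had one, and of ADAMTS6, the gene with the deepest fall, are shown because these are the genes that were chosen for moving in opposite directions. Each runs 5′ to 3′ on the gene's own strand. TIMP1 lies at chrX:47582186-47582485 on the plus strand, TIMP3 at chr22:32801455-32801754 on the plus strand, TIMP4 at chr3:12158863-12159162 on the minus strand and ADAMTS6 at chr5:65481871-65482170 on the minus strand. Capitals mark GGGCGG (the core of a GC box, bound by SP1 family factors) or its reverse complement CCGCCC, and in ADAMTS6 the palindrome TGACGTCA (the cyclic AMP response element).
TIMP3: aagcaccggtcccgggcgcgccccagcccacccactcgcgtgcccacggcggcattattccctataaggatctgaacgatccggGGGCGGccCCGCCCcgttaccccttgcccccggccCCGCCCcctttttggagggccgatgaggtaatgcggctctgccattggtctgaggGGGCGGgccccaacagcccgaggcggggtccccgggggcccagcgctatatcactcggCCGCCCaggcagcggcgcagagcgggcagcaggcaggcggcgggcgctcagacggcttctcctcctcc
TIMP1: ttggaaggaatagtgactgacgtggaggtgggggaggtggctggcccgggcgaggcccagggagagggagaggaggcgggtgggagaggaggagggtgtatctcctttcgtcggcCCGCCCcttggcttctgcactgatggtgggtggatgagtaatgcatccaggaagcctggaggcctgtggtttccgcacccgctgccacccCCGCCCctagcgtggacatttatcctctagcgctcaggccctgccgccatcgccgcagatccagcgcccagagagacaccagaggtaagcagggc
TIMP4: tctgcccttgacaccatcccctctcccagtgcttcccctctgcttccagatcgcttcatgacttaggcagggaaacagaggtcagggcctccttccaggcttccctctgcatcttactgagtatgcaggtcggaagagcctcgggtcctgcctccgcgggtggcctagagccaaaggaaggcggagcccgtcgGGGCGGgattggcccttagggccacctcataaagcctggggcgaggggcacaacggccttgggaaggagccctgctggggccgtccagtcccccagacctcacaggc
ADAMTS6: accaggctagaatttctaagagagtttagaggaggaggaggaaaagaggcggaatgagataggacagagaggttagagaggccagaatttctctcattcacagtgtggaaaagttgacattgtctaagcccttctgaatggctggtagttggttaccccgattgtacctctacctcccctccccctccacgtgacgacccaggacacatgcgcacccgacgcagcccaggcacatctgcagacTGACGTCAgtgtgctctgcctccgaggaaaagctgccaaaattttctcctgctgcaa

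GGGCGG, searched on both strands, occurred 5 times in the TIMP3 window, and 5.14% of all 35116 promoter windows of the same length hold as many. The TIMP1 window held 2 matches, a number reached by 26.7% of windows. The TIMP4 window held 1, a number reached by 45% of windows, and the ADAMTS6 window held 0. In the windows not shown, ADAM17 held 3 matches, ADAM10 held 1 and MMP14 held 1, so the matches were not limited to the inhibitors. TGACGTCA was present once in the ADAMTS6 window and in 1.85% of all windows; this motif was added to the search after the sequence had been seen. TGANTCA, the AP-1 site known from the promoters of several MMPs, occurs in 7.71% of all windows, and TATAAA, the TATA box, in 11.5%. Each had 0 matches in the 7 windows of the set. MMP14 is the only MMP among these windows, and sites that depart from the exact letters were not searched for. The dinucleotide CG, which each GGGCGG contains, occurred 31 times in TIMP3, 16 times in TIMP1, 12 times in TIMP4 and 9 times in ADAMTS6. It occurred 36 times in ADAM17, 30 times in ADAM10 and 10 times in MMP14. The median over all windows was 14. These are matches of letters in these windows only.

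The arrays were of similar depth, with 19230 to 21238 of 48107 probes detected (detection p below 0.05) on each. Values are normalised log2 intensities, background-corrected and quantile-normalised over the 6 arrays. SETDB1, the targeted gene, was 7.29 and 7.21 in the MDA-MB-231 arrays labelled shRNA-1, against 7.40 and 7.42 in the control arrays. The difference was -0.16 (limma, SE 0.16, 95% interval -0.53 to 0.22, adjusted p = 0.493). The MDA-MB-453 array labelled shRNA-3 read 8.73 for it and the control array 8.98. The transcript was thus not measurably lower, and the arms are called by their labels throughout. Line markers stood with the labels. The summed linear level of 8 MDA-MB-231 markers was 46912 to 51403 on the 4 MDA-MB-231 arrays and 322.0 to 349.8 on the MDA-MB-453 arrays. Of the 8, 2 fell with shRNA-1 in MDA-MB-231, 0 rose and 6 did not pass the test (limma, adjusted p below 0.05). On each shRNA-1 array 7 were detected, and on each MDA-MB-231 control array 8.

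Other markers moved with the arms in MDA-MB-231. Of 12 MDA-MB-453 markers, 11 were on the array, and their summed level was 11511 and 10930 in shRNA-1, against 4136 and 4666 in control; RAB25 and PIP were detected on no MDA-MB-231 array. Of these 11, 5 rose, 1 fell and 5 did not pass the test (limma, adjusted p below 0.05). SPDEF rose at least 24.2-fold, AGR2 at least 20.1-fold and KRT19 by 22.3-fold, while FOXA1, a luminal transcription factor, was 4.43 and 4.55 and not detected in shRNA-1, against 8.01 and 8.53 in control. The sum over 6 leukocyte markers was 1649 and 1616 in shRNA-1, against 262.3 and 201.9 in control. Of its 4 tested markers, 2 rose: CD14, a monocyte receptor, was 10.47 and 10.43 in shRNA-1, against 6.60 and 6.20 in control, and CSF1R was 7.04 and 7.02 in shRNA-1, against 5.31 and 5.33 in control. The T-cell marker CD3E was detected on none of the 6 arrays. Fibroblast markers summed to 281.8 and 265.0 in shRNA-1, against 216.8 and 230.1 in control, with COL3A1, FAP, LUM and THY1 detected on no array. Only 2 of these 9 markers were detected on each MDA-MB-231 array, so most of the summed markers were at background. Of the 3 tested, 1 rose and 0 fell (limma, adjusted p below 0.05). Endothelial markers summed to 428.1 and 381.3 in shRNA-1, against 275.7 and 272.5 in control. Of the 2 tested, PECAM1 rose by 8.74-fold and TIE1 fell at least 4.92-fold, with 1 marker detected on each shRNA-1 array and 2 on each control array, and with KDR, VWF, CDH5 and CLDN5 detected on no array. Their part in the differences below was not tested. Fewer cells of a type and less RNA per cell cannot be told apart in such bulk samples.

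On the inhibitor side, all 4 TIMPs stood higher with shRNA-1 than with shCtrl in MDA-MB-231. TIMP3 was 11.63 and 11.61 in shRNA-1, against 5.39 and 5.14 in control, a difference of 6.35 (81.5-fold). In the deposited, uncorrected intensities the same probe read 3122 and 2962 in shRNA-1, against 68.3 and 64.5 in control. Its control values lay close to the detection limit, and its log2 difference was 5.45 with a larger background offset.

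TIMP1, a secreted inhibitor of most MMPs, was 13.09 and 12.92 in shRNA-1, against 11.50 and 11.17 in control, 1.66 apart (3.17-fold). The step between the arms was several times the gap between arrays of 1 arm. TIMP1 was chosen for its rise here, so that is a description and no test. TIMP2 was 12.46 and 12.51 in shRNA-1, against 10.73 and 10.87 in control, 1.69 apart (3.22-fold). TIMP4, the family member known for the most restricted tissue range, was 7.46 and 7.39 in shRNA-1, against 5.88 and 5.73 in control, 1.62 apart (3.07-fold). With the larger background offset TIMP4 was 1.19 apart. For each TIMP both shRNA-1 arrays lay above both control arrays.

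On the protease side, the set went both ways. ADAMTS6 was detected on neither shRNA-1 array, at 4.59 and 4.67, against 10.45 and 10.60 in control. That is a difference of -5.90, reported as at least 53.6-fold lower in shRNA-1, since its level there is only bounded by the dimmest detected probes under this background correction. The difference was -4.68 with the larger background offset and -4.85 in the authors' processed values, so the bound is smaller on those scales. The deposited intensities were 52.0 and 50.6 in shRNA-1, against 1453 and 1664 in control. MMP1, the interstitial collagenase, was 6.38 and 6.15 in shRNA-1, against 8.17 and 8.39 in control, a difference of -2.01 (4.04-fold lower). With the larger background offset the MMP1 difference was -1.64. MMP14, the membrane-type MMP, was 6.67 and 6.68 in shRNA-1, against 5.42 and 5.21 in control, 1.36 apart (2.57-fold), and 0.88 apart with the larger background offset. MMP2, gelatinase A, was detected on 0 of the 6 arrays and was not tested.

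The sheddases differed less. ADAM17, which frees tumour necrosis factor from its membrane precursor, was 7.92 and 7.84 in shRNA-1, against 7.46 and 7.55 in control, 0.37 apart. ADAM10, which cuts Notch receptors and cadherins, was 7.32 and 7.09 in shRNA-1, against 6.50 and 6.89 in control, 0.51 apart. With the probe used for each of these genes, the arms did not overlap.

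**Figure D1:**
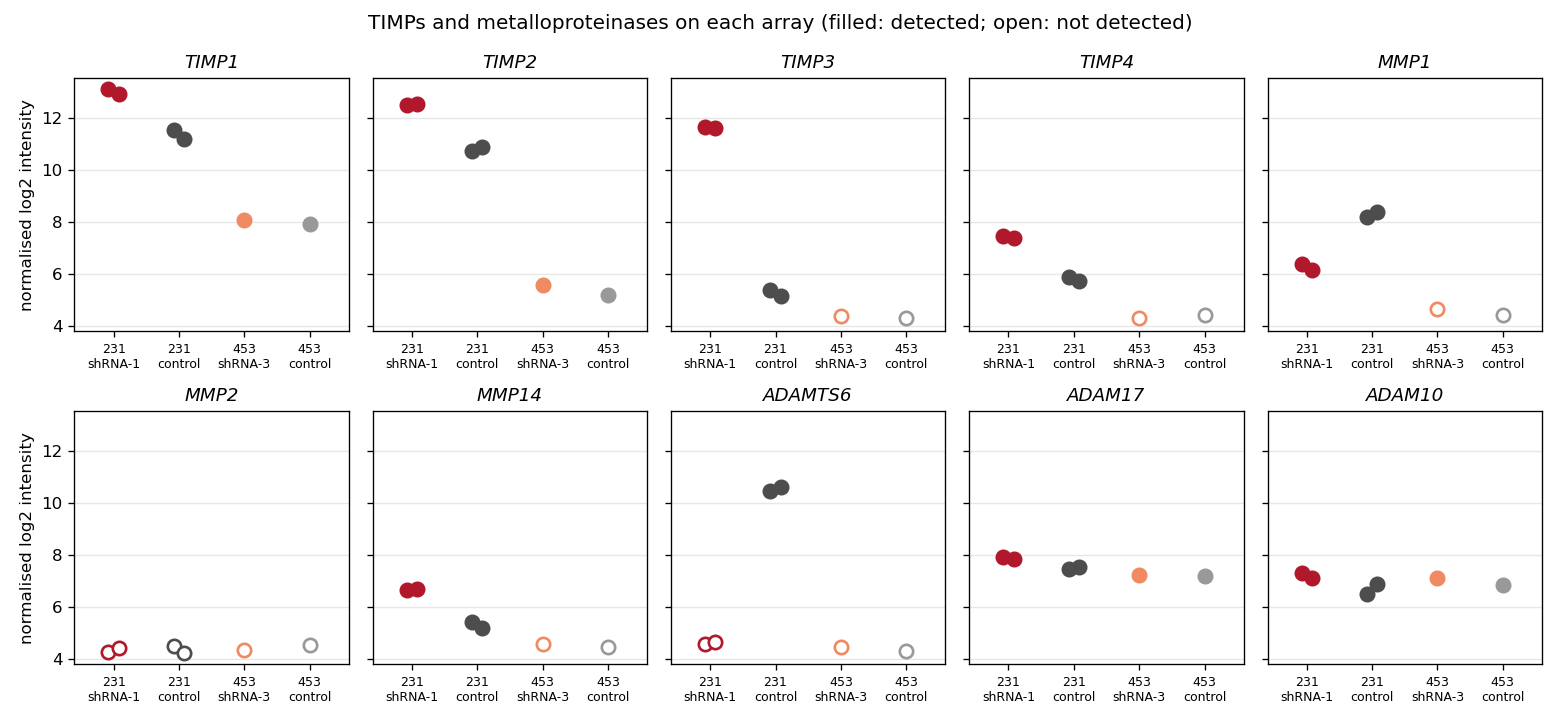
Normalised log2 intensity (y axis) of each of the 10 genes on every array, in panels; filled points were detected and open points were not, and each panel's axis gives the MDA-MB-231 arms left of the MDA-MB-453 arms. TIMP3 stands at 11.63 and 11.61 in the MDA-MB-231 shRNA-1 arrays, and ADAMTS6 at 10.45 and 10.60 in the MDA-MB-231 control arrays, while MMP2 is open on all 6.

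Of the 9 genes that passed the detection filter, 7 had both shRNA-1 arrays above both control arrays and 2 had both below. Over all 13022 genes tested, 34.1% had arms that did not overlap with shRNA-1 higher, and 34.8% with shRNA-1 lower. Past a 2-fold mean difference were 5 of the 9 higher and 2 lower, against 9% and 7.7% of all genes. The choice of the genes used this contrast, so nothing is read from these shares. The median difference over all genes was -0.01. ADAMTS6 was detected only in control arrays of MDA-MB-231, and so passed the filter through the arm where it is high.

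Several probes were available for 3 genes, and they did not all tell the same size of difference. The second TIMP2 probe was 7.79 and 7.83 in shRNA-1, against 7.55 and 7.11 in control, 0.48 apart, while the brighter one was 1.69 apart. ADAM17 probes 2 and 3 differed by 0.07 and 0.23 between the arms of MDA-MB-231, and in both the arms overlapped. Probe 2 was 5.94 and 5.83 in shRNA-1, against 6.03 and 5.58 in control. Probe 3 was 5.73 and 6.06 in shRNA-1, against 5.81 and 5.52 in control. The other ADAM10 probe, not detected on 1 control array, differed by 0.54. The mean differences of all these other probes pointed the same way as the probe used for the gene in MDA-MB-231.

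**Figure D2:**
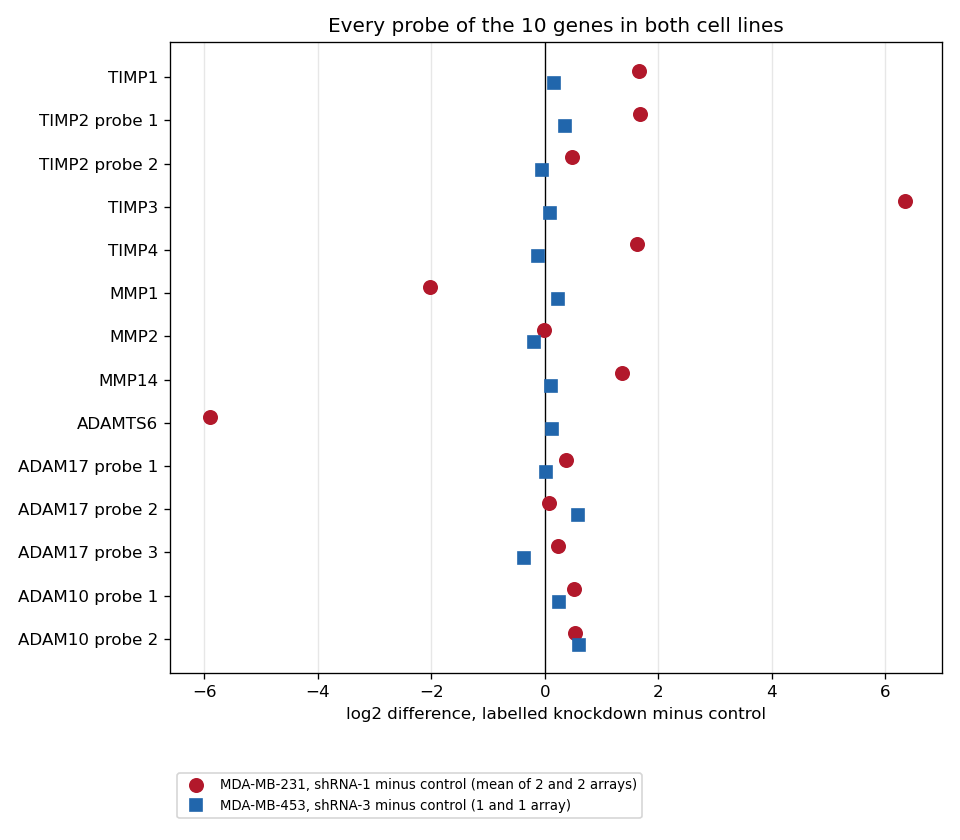
Log2 difference, labelled knockdown minus control, for each of the 14 probes (x axis), with circles for MDA-MB-231 (mean of 2 arrays minus mean of 2) and squares for MDA-MB-453 (1 array minus 1). TIMP3 at 6.35 and ADAMTS6 at -5.90 stand farthest out in MDA-MB-231, and the squares lie between -0.37 and 0.61.

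The MDA-MB-453 arrays played no part in choosing the genes. There the inhibitors barely differed: TIMP1 was 8.07 on the array labelled shRNA-3 and 7.90 on the control array, a difference of 0.17. TIMP2 was 5.57 on the shRNA-3 array and 5.20 on the control array, a difference of 0.37. TIMP3 was 4.41 on the shRNA-3 array and 4.31 on the control array, and TIMP4 was 4.30 on the shRNA-3 array and 4.42 on the control array. Neither was detected on either array.

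The proteases MMP1, MMP14 and ADAMTS6 were likewise not detected on either MDA-MB-453 array. ADAM17 was 7.22 on the shRNA-3 array and 7.19 on the control array, 0.03 apart. Its other probes were 0.59 and -0.37 apart, of opposite sign. ADAM10 was 7.11 on the shRNA-3 array and 6.85 on the control array, 0.26 apart, and its other probe was 0.61 apart. Of the 9 tested genes, 0 differed by 2-fold or more between the MDA-MB-453 arrays, where 3.06% of all genes tested did. With 1 array per arm, MDA-MB-453 has no spread of its own and no p is given within it. For the genes at background a fall could not have been seen. Median scaling in place of quantile normalisation moved the median of all MDA-MB-453 differences to 0.26, and with it TIMP1 to 0.55, TIMP2 to 0.52, ADAM17 to 0.39 and ADAM10 to 0.61. The 4 detected genes are TIMP1, TIMP2, ADAM17 and ADAM10.

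The level in each line, averaged over its arms with equal weight, is a contrast orthogonal to the arm difference that chose the genes, although the averages hold the same arrays. Of the 9 genes, 8 passed limma's test at an adjusted p below 0.05, all higher in MDA-MB-231. Over all genes tested, 62.3% were called in either direction and 30.6% were higher in MDA-MB-231. The 5 genes detected on neither MDA-MB-453 array (TIMP3, TIMP4, MMP1, MMP14 and ADAMTS6) passed the filter only through MDA-MB-231 and had to be higher there, so the count supports nothing about the set and no p is given for them. The spread comes from the MDA-MB-231 replicates alone and is taken to hold for MDA-MB-453 too. Beside each tested average, the difference between the control arrays alone (2 against 1) is given, a setting added after the data were seen.

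TIMP2 had the widest gap of the 4 genes detected in both lines, averaging 11.64 in MDA-MB-231 and 5.38 in MDA-MB-453, 6.26 apart (limma, SE 0.14, adjusted p = 6.56e-09). Between control arrays it was 5.60 apart (limma, SE 0.20, adjusted p = 1.72e-07). Its second probe, not detected in MDA-MB-453, was 3.22 apart. TIMP1 averaged 12.17 in MDA-MB-231 and 7.99 in MDA-MB-453, 4.18 apart (limma, SE 0.16, adjusted p = 7.26e-08), and 3.44 apart between control arrays (limma, SE 0.23, adjusted p = 3.81e-06). For the genes at background in MDA-MB-453 only the control levels are set side by side. ADAMTS6 averaged 10.52 on the MDA-MB-231 control arrays and read 4.33, not detected, on the MDA-MB-453 control array. MMP1 averaged 8.28 on the MDA-MB-231 control arrays and read 4.43, not detected, on the MDA-MB-453 control array. TIMP4, MMP14 and TIMP3 averaged 5.81, 5.31 and 5.27 on the MDA-MB-231 control arrays, where each was detected on both.

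Among the sheddases ADAM17 was 0.49 higher in MDA-MB-231 (limma, SE 0.14, adjusted p = 0.0159). That call was lost when its probes were averaged (0.36, limma adjusted p = 0.0522), without control replicate 2 of MDA-MB-231 (0.46, limma adjusted p = 0.0571) and between control arrays alone (0.32, limma adjusted p = 0.224). ADAM10 differed by -0.03 (limma, SE 0.17, adjusted p = 0.901). Between control arrays alone ADAM10 differed by -0.15. By level, TIMP1, TIMP2, TIMP3, TIMP4 and MMP14 thus ran highest in MDA-MB-231 shRNA-1, then MDA-MB-231 control, then MDA-MB-453. MMP1 and ADAMTS6 were highest in MDA-MB-231 control; ADAMTS6 had no order among the other 3 groups, which were all below detection. ADAM17 followed the order of the TIMPs by smaller steps with the probe used for it, although its step between the control arrays of the lines was not called. In ADAM17 probes 2 and 3 the MDA-MB-231 arms overlapped. For probe 2 the MDA-MB-453 shRNA-3 array also lay above both shRNA-1 arrays. Both ADAM10 values in MDA-MB-453 lay within the range of those in MDA-MB-231. Neighbours in these orders that involve MDA-MB-453 have no replicate spread on that side.

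Neighbouring genes on the chromosome were compared next, up to 25 tested genes on each side. The TIMP3 neighbours on chromosome 22 had a median difference of 0.04 in MDA-MB-231, shRNA-1 minus control, and 0 of 50 reached the 6.35 of TIMP3. Around ADAMTS6 on chromosome 5 the median was -0.30, and 0 of 50 fell as far. Around MMP1 on chromosome 11 the median was -0.02, and 0 of 50 fell as far. The neighbours of TIMP1 on the X chromosome had a median of 0.45, with 1 of 50 at or beyond TIMP1, and those of TIMP2 on chromosome 17 a median of 0.31, with 2 of 50 at or beyond it. TIMP4 had 1 such neighbour of 50 and MMP14 had 2 of 50. ADAM17 had 7 of 44 and ADAM10 had 6 of 50. The TIMPs and ADAMTS6 were chosen for their change in this contrast, so few neighbours could match them. Nothing is read from these counts.

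**Figure D3:**
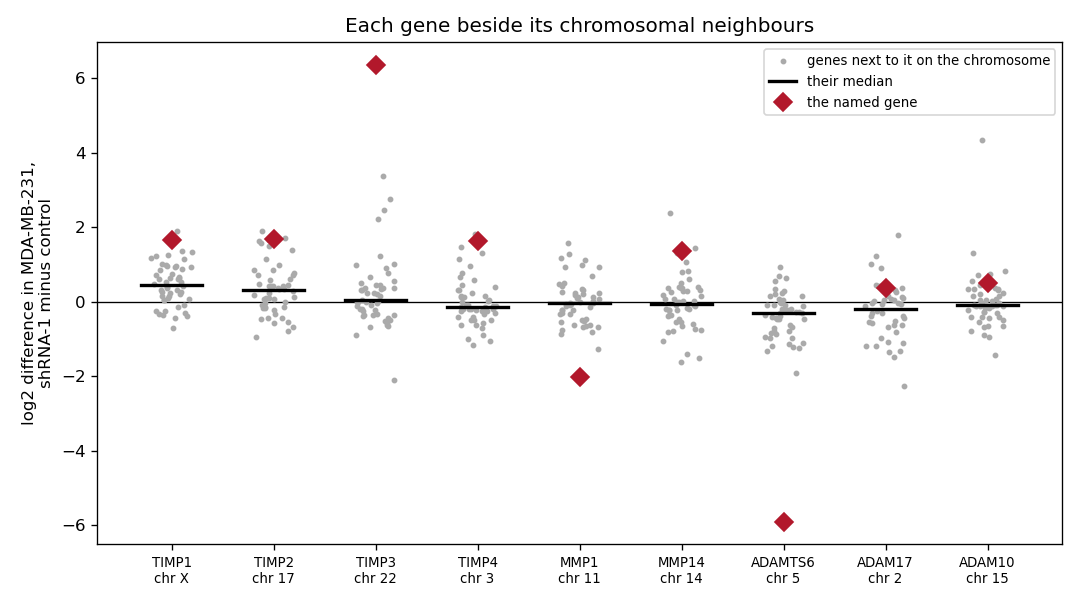
Log2 difference in MDA-MB-231, shRNA-1 minus control (y axis), of the 9 tested genes (diamonds) and of up to 25 tested genes on each side of them along the chromosome (dots, with their median as a bar). TIMP3 and ADAMTS6, both chosen for their change in this contrast, lie outside the range of their neighbours, and ADAM17 and ADAM10 inside it.

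TIMP1, TIMP3 and TIMP4 each lie within the span of a synapsin gene (SYN1, SYN3 and SYN2). SYN1 did not pass the test, at 4.91 and 4.95 in shRNA-1, against 4.76 and 4.66 in control (limma, difference 0.22, adjusted p = 0.343). SYN2 was 4.81 and 4.95 in shRNA-1, against 5.22 and 5.52 in control, -0.49 apart (limma, SE 0.18, adjusted p = 0.0606), and 4.82 on the MDA-MB-453 shRNA-3 array and 5.91 on the control array. SYN3 was not tested. In the MMP cluster on chromosome 11, MMP1 was 4.04-fold lower in shRNA-1 and its next gene MMP3, not detected in shRNA-1, at least 1.85-fold lower. MMP8 was 0.18 apart on the log2 scale, and MMP7, not detected in control, was at least 1.76-fold higher in shRNA-1.

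The wider family was then described from lists of related genes drawn up with earlier results of these data known. Of 95 listed genes outside the set, 48 could be tested, and in MDA-MB-231 10 rose and 11 fell with shRNA-1 (limma, adjusted p below 0.05). Of all genes tested, 19.5% rose and 19.7% fell. The median difference of the 48 was 0.05, beside -0.01 for all genes. Without control replicate 2 the count of genes that fell was 7.

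Among the other MMPs, 3 of 11 tested rose and 2 fell. MMP23B rose at least 2.71-fold, at 6.24 and 6.24 in shRNA-1, against 4.78 and 4.64 in control, where it was not detected (limma, adjusted p = 0.000215). Matrilysin (MMP7) rose at least 1.76-fold, and MMP11 rose at least 1.42-fold. The stromelysin MMP3, which can activate proMMP1, fell at least 1.85-fold, and gelatinase B (MMP9) fell at least 1.66-fold; both were detected only in control. Each of the 5 was detected in 1 arm only. The MMP11 call was lost without control replicate 2 and with the larger background offset. The bounds of the 5 hold for the processing used here. Under the alternatives the smallest log2 differences were 0.87 for MMP23B, 0.62 for MMP7, 0.32 for MMP11, -0.62 for MMP3 and -0.54 for MMP9.

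Among the other ADAMs, 2 of 8 rose and 0 fell. ADAM8, a protease best known from leukocytes, was 10.18 and 10.37 in shRNA-1, against 5.06 and 4.74 in control, 5.38 apart (limma, SE 0.19, adjusted p = 4.98e-07), and was detected on only 1 of the 2 control arrays. ADAM15 rose by 0.48 (limma, adjusted p = 0.0497). Among the other ADAMTS and ADAMTS-like genes, 0 of 8 rose and 4 fell. ADAMTS1 fell by 0.94, ADAMTSL1 fell by 0.92, ADAMTSL4 fell by 0.83 and ADAMTSL5 fell by 0.72. The calls for ADAM15, ADAMTSL1, ADAMTSL4 and ADAMTSL5 were lost without control replicate 2, and those for ADAM15, ADAMTSL1 and ADAMTSL5 also without control replicate 1; ADAM15 was lost without shRNA-1 replicate 1 too. The ADAMTS-like proteins have no protease domain. BMP1, the procollagen C-proteinase and the only astacin tested, was 8.23 and 8.50 in shRNA-1, against 6.28 and 5.84 in control, 2.30 apart (limma, SE 0.21, adjusted p = 7.52e-05).

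Of 20 tested inhibitors, activators and partners, 4 rose and 5 fell. The iRhoms RHBDF2 and RHBDF1, which carry ADAM17 to the cell surface, rose by 1.90 and 0.89. FRMD8, a gene of the same list, fell by 0.81 (limma, adjusted p = 0.00989). The FRMD8 call was not followed under the alternatives. The proprotein convertase PCSK5 rose by 1.38 and FURIN, which removes the prodomain of MMP14 and ADAMs, fell by 1.36. Of the tetraspanins that escort ADAM10, TSPAN15 rose by 1.33, while TSPAN33 fell by 1.76 and TSPAN17 fell by 0.86. TSPAN33 was detected on only 1 of the 2 shRNA-1 arrays, and FURIN lay close to the detection limit there, at 4.95 and 4.90. Their smallest log2 differences under the alternatives were -1.02 for TSPAN33 and -0.80 for FURIN. PCOLCE2, an enhancer of procollagen C-proteinase, was 5.49 and 5.82 in shRNA-1, against 7.59 and 7.54 in control, and fell by 1.91 (limma, SE 0.18, adjusted p = 0.000104). For the other genes named in this list the SE ran from 0.16 to 0.21.

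In MDA-MB-453, 0 of the 48 related genes differed by 2-fold or more. A direct test of the difference in effect, MDA-MB-231 minus MDA-MB-453, called 9 of the 48 (limma, adjusted p below 0.05), where 13.6% of all genes were called. That test takes the spread of the MDA-MB-231 replicates to hold for the MDA-MB-453 arrays. Without control replicate 2 of MDA-MB-231 the count was 5.

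Substrates were listed on both sides. Of 23 tested substrates of ADAM10 and ADAM17, 10 rose and 3 fell in MDA-MB-231, with a median difference of 0.34, where 19.5% of all genes rose and 19.7% fell. TNFRSF1B, a receptor for tumour necrosis factor, was 7.68 and 7.70 in shRNA-1, against 5.05 and 5.31 in control, 2.51 apart (limma, SE 0.17, adjusted p = 1.74e-05). The growth factor precursor TGFA was 9.16 and 9.74 in shRNA-1, against 7.51 and 7.36 in control, 2.02 apart (limma, SE 0.22, adjusted p = 0.000208). The membrane chemokine CX3CL1 rose at least 3.03-fold and the adhesion molecule ICAM1 rose by 1.72 (limma, SE 0.29, adjusted p = 0.00192). SDC1 fell by 1.56, HBEGF fell by 0.99 and MICA fell by 0.64, a call that held under 6 of 12 alternatives and was lost without either control replicate, without shRNA-1 replicate 1, with the larger background offset and with no detection filter.

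Of 19 tested matrix substrates, 4 rose and 3 fell, with a median difference of -0.02. SPARC, a matrix glycoprotein, was detected on neither shRNA-1 array, at 4.62 and 4.48, against 6.86 and 7.01 in control. It fell at least 4.47-fold (limma, adjusted p = 2.05e-05) under the processing used here. Its log2 difference was -1.45 at its smallest under the alternatives. SPARC is also among the MDA-MB-231 markers. The basement membrane collagen COL4A1 was 8.68 and 8.70 in shRNA-1, against 10.06 and 10.10 in control, and fell by 1.39 (limma, SE 0.16, adjusted p = 0.000319). FBLN1 fell by 0.76. LTBP3 rose by 1.32, EFEMP1 rose by 1.19, TNC rose by 0.69 and fibronectin (FN1) rose by 1.58-fold or more with the probe used here. The calls for FBLN1 and TNC were lost without control replicate 2, that for FBLN1 also without shRNA-1 replicate 1, and that for FN1 with no background correction and with median scaling. The FN1 difference was 0.08 with no background correction, where another of its probes was the brighter one, so its 1.58-fold holds for 1 probe under 1 background correction. In MDA-MB-453, 4 of the 42 tested substrates had a measured difference of 2-fold or more, as 3.06% of all genes tested did, and 1 of the 4, EFEMP1, was not detected on the shRNA-3 array. The proteoglycan VCAN was 7.69 on the shRNA-3 array and 5.11 on the control array, and the cadherin CDH2 was 8.15 on the shRNA-3 array and 6.54 on the control array. TNC was 8.96 on the shRNA-3 array and 10.33 on the control array, opposite in direction to MDA-MB-231. EFEMP1 is thus bounded only at 1.71-fold or more lower on the shRNA-3 array.

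**Figure D4:**
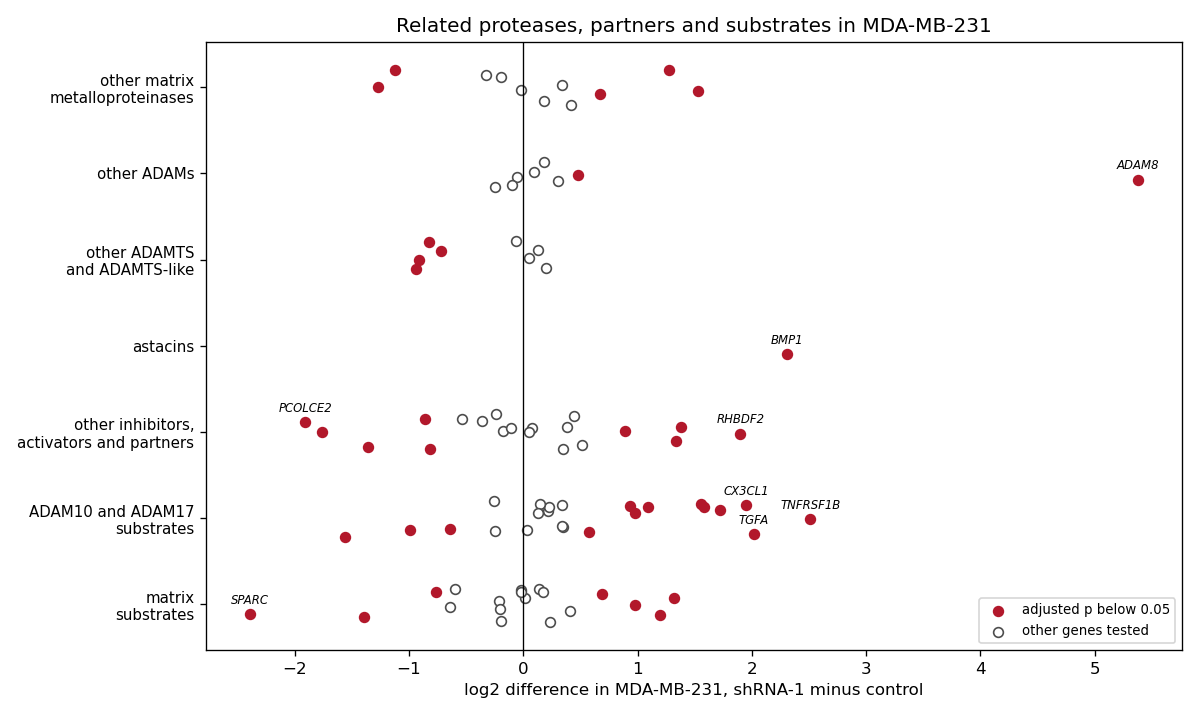
Log2 difference in MDA-MB-231, shRNA-1 minus control (x axis), of the tested genes of each related list, with filled points for genes at an adjusted p below 0.05 and open points for the other genes tested. ADAM8 lies alone at 5.38, and the 4 filled ADAMTS and ADAMTS-like genes all lie below 0.

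The genes whose pattern over the 6 arrays was most like TIMP3, by the Euclidean distance between centred log2 values, were SPANXD (0.90), SPANXC (1.13) and CDH11 (1.17). SPANXD and SPANXC are near-identical cancer-testis genes, and cross-hybridisation between them was not tested. CDH11, a cadherin, was 11.56 and 11.61 in shRNA-1, against 4.32 and 4.23 in control. Most like ADAMTS6 were MARCHF4 (0.90), ESM1 (1.51) and KISS1 (1.72). ESM1 was 4.72 and 4.76 in shRNA-1, against 9.51 and 9.75 in control, and was not detected in shRNA-1.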

How the data were processed

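Biotin-labelled cRNA from total RNA of 2 breast cancer lines was measured on 6 bead arrays, per the labels' protocols. The authors deposited each probe's intensity, for which no background correction is named, and beside it a detection p-value, so called per the file headers. The deposited processed values are on a log2 scale. They equal the quantile-normalised log2 intensities to within 5.26e-09, and the median of each column is 5.71. The program that made the intensities is not given in the sources used here.

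Gene names are those of the platform annotation, which may be out of date: 30113 probes had 1 symbol, 8 several and 17986 none. The Entrez identifiers of 30074 probes matched RefSeq (GRCh38.p14), and 0 symbols changed. That table also gave the order of genes. Intensities were corrected with limma 3.58.1 in R 4.3.3 (normexp, negative controls inferred from detection p, offset 16), quantile-normalised and put on a log2 scale. Probes detected (p below 0.05) on at least 2 of the 6 arrays were kept, and the brightest of a gene's probes stands for it, which gave 13022 genes from 17668 probes. Where a gene was detected on no array of a group, its dim arrays were raised to the lowest value among detected probes. The fold is then a lower bound under this background correction, and it can be smaller under the alternatives.

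Differences were tested with limma (lmFit and eBayes, a mean for each of 4 groups, two-sided, Benjamini-Hochberg over all genes). The fit has 2 residual degrees of freedom and a prior worth 6.52. The smallest p of an exact permutation of 2 against 2 arrays is 0.333, so smaller values rest on the moderated spread. The scripts were checked on simulated data.

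The 10 genes, the lists and the tests were chosen with earlier results of these data known. Named were the 10 genes, SETDB1, and up to 4 called genes per direction of each list with the largest differences. The list genes past 2-fold in MDA-MB-453 and the 3 genes most like TIMP3 and ADAMTS6 were named too. FRMD8 was named besides, as the only fall of its list left out by that limit. Marker genes named one by one were chosen after their values were seen. Motifs and promoter windows came from RefSeq. Alternatives changed the background correction, offset, normalisation, detection filter, probe choice, replicates and replicate block, and 1 added later took the line difference from control arrays alone.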

Additional observations from a re-analysis of the deposited data

Results flagged for a closer look

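Of the genes named above from the related and marker lists, 26 had an effect in MDA-MB-231 that differed from the effect in MDA-MB-453 by a direct test (limma, adjusted p below 0.05). The list genes had themselves been named for large differences within a line, and the markers after their values were seen. The number 26 therefore supports nothing about the lists. Of all genes tested, 13.6% were called by this test. The genes named for their likeness to TIMP3 or ADAMTS6 were picked by that pattern and are not counted. Each value is the log2 effect of shRNA-1 over control in MDA-MB-231 minus that of shRNA-3 over control in MDA-MB-453. The difference was 5.20 for ADAM8, 2.01 for BMP1, 1.51 for MMP23B and 1.37 for MMP7. Among activators and partners it was 2.39 for RHBDF2, 2.05 for PCSK5, -1.89 for PCOLCE2, -1.39 for TSPAN33 and -1.41 for FURIN. Among the sheddase substrates it was 2.49 for TNFRSF1B, 1.84 for TGFA, 2.12 for CX3CL1 and -1.57 for CDH2. Among the matrix substrates it was 2.20 for EFEMP1, 2.05 for TNC, -2.48 for SPARC, -1.48 for COL4A1 and -3.17 for VCAN. Among markers it was 3.50 for CD14, 1.99 for CSF1R, -4.05 for FOXA1, 4.45 for SPDEF, 4.98 for AGR2, 4.45 for KRT19, 3.25 for PECAM1 and -2.43 for TIE1.

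Many of these values are measured against probes at background and are not exact sizes of effect. MMP23B, MMP7, PCOLCE2, TNFRSF1B, TGFA, CX3CL1, SPARC, COL4A1, CSF1R, PECAM1 and TIE1 were detected on neither MDA-MB-453 array. MMP23B, MMP7, CX3CL1, SPARC, VCAN, CDH2, FOXA1, SPDEF, AGR2 and TIE1 were not detected in at least 1 arm of MDA-MB-231. ADAM8 was not detected on the MDA-MB-453 control array and was detected on only 1 of the 2 MDA-MB-231 control arrays. Its difference within MDA-MB-231 was 4.32 at its smallest under the alternatives. The hairpin differs between the lines, and MDA-MB-453 has 1 array per arm, so line and hairpin cannot be told apart.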

How the results depend on the processing

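Directions held for TIMP1, TIMP2, TIMP3, TIMP4, MMP1, MMP14, ADAMTS6, ADAM17 and ADAM10 in MDA-MB-231 under the alternatives in which they were tested. Requiring detection on all 6 arrays leaves 4 of the 10 genes, 17 related genes and 15 substrates. Under it 2 of the set passed 2-fold in MDA-MB-231 and 3 were called between lines. Related genes that rose numbered 6 and that fell 3, substrates that rose 8 and that fell 3, and related genes that differed in effect between lines 3. Median scaling gave 14 of these last. Leaving out 1 MDA-MB-231 array gave 7 to 12 related genes that fell and 5 to 13 that differed in effect. Over all genes, 5103 calls in MDA-MB-231 became 3305 without control replicate 1 and 2893 without control replicate 2. The ADAM10 line difference changed sign under median scaling (0.0165) and spanned -0.13 to 0.0702 when 1 array was left out. The cause was not tested. Calls lost under at least 1 alternative were those for MMP11, ADAM15, ADAMTSL1, ADAMTSL4, ADAMTSL5, MICA, FN1, TNC and FBLN1. Same-numbered MDA-MB-231 arrays deviated together with a correlation of only 0.07 over genes. With 2 arrays per arm this cannot settle whether the numbers pair the samples. With the replicate block 9 related genes rose and 12 fell, 13 substrates rose and 5 fell, 8 related genes differed in effect, 7 of the set passed 2-fold and 8 were called between lines. The block also lost the calls for ADAM15 and MICA. Between control arrays alone, a setting chosen after seeing the data, 7 of the set were called between lines. Genes near background (TIMP4, MMP14 and the MMPs named) are limited by signal over background.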
